A study of Mus musculus with 3 samples.

Results

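Broad open regions were stretches of accessible chromatin of at least 1500 bp that were found in each of 3 ATAC-seq peak lists from cultured mouse hematopoietic stem cells (HSCs). ATAC-seq marks accessible DNA by letting a transposase insert sequencing adapters where nucleosomes leave room. Joining peaks that overlap between lists gave 24981 merged regions, of which 13670 held a peak in every list, and 1293 of these common regions (9.46%) had a merged width of 1500 bp or more. The other 12377 common regions, the narrower ones, served for comparison. The broad regions were thus chosen by their peak widths in these same libraries, so widths, and ratios of widths between lists, are given below as descriptions with no test.

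The HSCs were sorted from adult mice of the genotype Mx1-Cre-/-;mTORflox/flox after poly(I:C) injection, which have floxed mTOR alleles but no Cre, so mTOR was intact in all 3 groups. The cells were cultured in StemSpan SFEM with the solvent DMSO, with 200 nM AZD2014, or with 1 µM rapamycin. AZD2014 (vistusertib) occupies the ATP pocket of the mTOR kinase, and rapamycin acts on mTOR allosterically after binding FKBP12. Each condition had 1 library, made from 50000 cells, so no difference has a replicate check and condition and library cannot be told apart. Both drug comparisons use the same DMSO library, the 2 drugs were given at different doses, and how long they were given is not stated in the sources used here.

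An active promoter usually shows a nucleosome-depleted window at the transcription start. Accessibility extends further where CpG-rich DNA, paired promoters that face away from each other, or dense clusters of transcription factor sites keep nucleosomes off a longer stretch. Wide accessible or acetylated stretches are known from genes with high and steady transcription and from regulators of cell identity.

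The promoters printed next belong to the widest region shared by a pair of genes and to regulators of stem cells, and they show the sequence over which the broad regions lie. All are from the RefSeq promoter table on GRCm38.p6, written 5′ to 3′ on the strand of the gene, from 250 bases before to 50 bases after the transcription start. Capitals mark matches, on either strand, to the GC box GGGCGG, the YY1 motif AAGATGGC, the NRF1 motif GCGCATGCG, CCAAT, or the E-box CACGTG that MYC and its partners bind. Brd2 encodes a BET protein that reads acetylated histones, and H2-DMa a chaperone that loads peptides on MHC class II. They start on opposite strands, Brd2 at chr17:34119851-34120150 on the minus strand and H2-DMa at chr17:34122582-34122881 on the plus strand, within 1 broad region of 4344 bp.
Brd2: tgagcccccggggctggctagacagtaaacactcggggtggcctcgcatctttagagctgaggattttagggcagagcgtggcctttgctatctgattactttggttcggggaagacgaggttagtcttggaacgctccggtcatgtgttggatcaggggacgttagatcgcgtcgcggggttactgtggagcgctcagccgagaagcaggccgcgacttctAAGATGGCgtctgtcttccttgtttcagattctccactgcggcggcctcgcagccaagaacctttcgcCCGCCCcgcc
H2-DMa: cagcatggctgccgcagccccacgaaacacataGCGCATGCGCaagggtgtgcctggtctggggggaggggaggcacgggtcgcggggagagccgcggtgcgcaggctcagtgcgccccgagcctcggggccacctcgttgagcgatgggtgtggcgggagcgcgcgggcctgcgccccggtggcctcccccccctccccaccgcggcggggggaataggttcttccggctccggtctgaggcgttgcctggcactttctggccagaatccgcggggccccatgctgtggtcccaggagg

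The NRF1 motif is nearly its own reverse complement, so its 2 matches at H2-DMa overlap. Mnt encodes a repressor of the MYC network that pairs with MAX, and its promoter at chr11:74830674-74830973 on the plus strand held 4 GC boxes and 1 CACGTG. Bmi1, a Polycomb protein needed for HSC self-renewal, had 6 GC boxes and 1 CACGTG at chr2:18676768-18677067 on the plus strand.
Mnt: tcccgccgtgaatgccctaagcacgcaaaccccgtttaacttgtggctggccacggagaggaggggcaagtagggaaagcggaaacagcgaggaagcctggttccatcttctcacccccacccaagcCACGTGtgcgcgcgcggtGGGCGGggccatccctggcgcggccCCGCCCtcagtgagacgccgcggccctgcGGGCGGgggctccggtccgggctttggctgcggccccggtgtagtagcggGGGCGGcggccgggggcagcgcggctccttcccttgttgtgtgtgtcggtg
Bmi1: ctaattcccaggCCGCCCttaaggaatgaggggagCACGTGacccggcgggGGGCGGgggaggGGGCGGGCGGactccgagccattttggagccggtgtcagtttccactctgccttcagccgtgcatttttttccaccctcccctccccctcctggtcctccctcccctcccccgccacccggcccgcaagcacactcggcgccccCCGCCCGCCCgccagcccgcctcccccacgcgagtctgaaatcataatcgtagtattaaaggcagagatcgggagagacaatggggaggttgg

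Foxo3 encodes a forkhead factor that AKT signalling keeps out of the nucleus and that preserves HSC quiescence. Its promoter at chr10:42276646-42276945 on the minus strand had 5 GC boxes. Runx1 encodes a core-binding factor required for HSCs to emerge in the embryo. The start of it that lay in a broad region is inside the gene, at chr16:92697280-92697579 on the minus strand, and had 2 CCAAT boxes and no GC box.
Foxo3: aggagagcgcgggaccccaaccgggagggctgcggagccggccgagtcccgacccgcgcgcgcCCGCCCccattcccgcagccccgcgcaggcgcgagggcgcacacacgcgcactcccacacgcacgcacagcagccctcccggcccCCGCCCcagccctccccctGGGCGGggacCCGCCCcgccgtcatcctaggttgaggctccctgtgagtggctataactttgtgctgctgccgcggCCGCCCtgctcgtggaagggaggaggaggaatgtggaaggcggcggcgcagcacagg
Runx1: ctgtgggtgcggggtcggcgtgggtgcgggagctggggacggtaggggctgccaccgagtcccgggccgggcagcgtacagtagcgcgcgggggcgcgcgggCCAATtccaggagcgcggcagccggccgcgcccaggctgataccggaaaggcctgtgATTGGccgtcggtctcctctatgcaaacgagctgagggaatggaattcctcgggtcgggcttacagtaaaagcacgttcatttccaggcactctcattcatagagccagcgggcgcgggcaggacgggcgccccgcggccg

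The merged width had a median of 1729 bp, with quartiles of 1598 and 1968 bp and a range of 1500 to 6147 bp, against a median of 911 bp for the narrower common regions. Of the broad regions, 999 were under 2000 bp, 225 were from 2000 to under 2500 bp, 39 were from 2500 to under 3000 bp, and 30 were wider still. The threshold fell in a continuous distribution. The regions just below it measured 1499 bp and lay at Paxip1, at Polr2i and Tbcb, and at Gnpat. The nearest above it lay at Prkar1a with 1500 bp and, with 1501 bp each, at Ahctf1 and at Rab2b and Tox4.

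**Figure D1:**
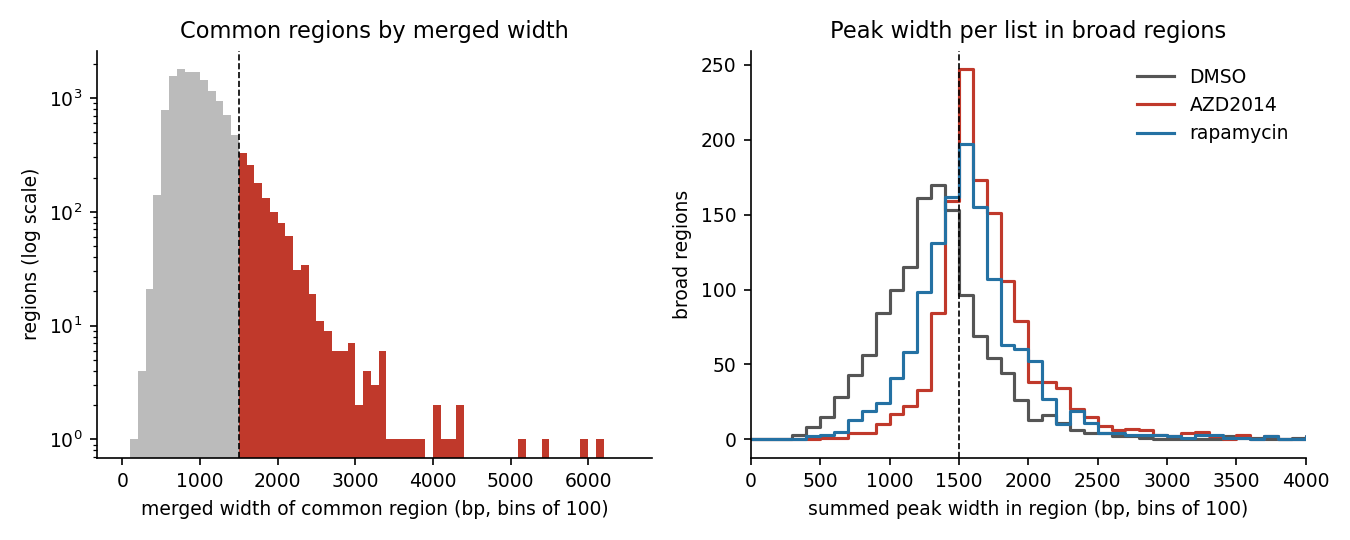
Left, number of common regions (log scale) by merged width in bins of 100 bp, with the broad regions in red right of the dashed line at 1500 bp. Right, number of broad regions by the summed width of the peaks of each list inside the region; the median is 1322 bp in DMSO, 1636 bp in AZD2014 and 1543 bp in rapamycin.

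Breadth was not equally present in the 3 lists. The summed peak width per broad region had a median of 1322 bp in DMSO, 1636 bp in AZD2014 and 1543 bp in rapamycin, which covered 75.1%, 96.5% and 90.1% of the region. A summed width of 1500 bp or more was reached in 357 broad regions by the DMSO list, in 958 by the AZD2014 list and in 737 by the rapamycin list. All 3 lists reached it in 285 regions, and none did in 147, where peaks that are offset between lists add up to the merged width. The left edge of the region was set by a DMSO peak in 136 regions, by an AZD2014 peak in 703 and by a rapamycin peak in 462. Without the AZD2014 list, 843 regions would have been called broad in place of 1293.

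The drug lists were also longer as a whole. The lists held 17189 peaks in DMSO, 21321 in AZD2014 and 18233 in rapamycin, with median peak widths of 610, 700 and 710 bp, and 305, 956 and 705 single peaks reached 1500 bp. Sequencing depth is unknown, and its part in these widths was not tested. The broad regions held 17.2% of the bases in common regions. They also ranked high by the authors' peak score within each list. A peak in the top 10% of its list lay in 43.2% of broad regions for DMSO, 50% for AZD2014 and 45.5% for rapamycin, against 12.6%, 15.6% and 13.3% of all common regions.

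Most broad regions were 1 uninterrupted peak in each library. This held for 1105 of them (85.5%, 95% Wilson interval 83.4 to 87.3, which like all such intervals here covers counting error only), against 99.1% of the narrower regions. DMSO had more than 1 peak in 138 broad regions, AZD2014 in 51 and rapamycin in 67. In 84 broad regions (6.5%), DMSO had separate peaks and each drug list a single peak, which was so in 57 narrower regions (0.461%). Whether the single peak spanned the gap between the DMSO peaks was not checked. At Spred2 the single rapamycin peak had 823 bp, against 1675 bp for the DMSO peaks. A wide region gives more room for separate peaks, so part of this contrast follows from the selection. Only 10 broad regions were split in every list, among them those of Brd2 and H2-DMa, Klf10, Mnt, Sox12 and Foxo3.

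Of the 15 widest broad regions at ends of named genes, 14 had their shortest summed peak width in the DMSO list. Brd2 and H2-DMa shared the widest of them, chr17:34118771-34123114, where the peaks summed to 2409 bp in DMSO, 4029 bp in AZD2014 and 2516 bp in rapamycin. The region at Klf13, a zinc-finger factor that binds GC-rich promoters, spanned 4083 bp at chr7:63936092-63940174. Its peaks covered 1921 bp in DMSO, 3122 bp in AZD2014 and 4014 bp in rapamycin. Klf10, a related factor induced by TGF-beta, had 4000 bp at chr15:38298605-38302604, with 2295, 3792 and 3726 bp of peaks in DMSO, AZD2014 and rapamycin. In both the DMSO library had the shortest peaks.

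Mnt followed with 3672 bp at chr11:74829690-74833361, where DMSO peaks covered 2769 bp, AZD2014 peaks 3502 bp and rapamycin peaks 3249 bp. At Sox12, an SRY-box factor, the region at chr2:152396004-152399397 was 3394 bp wide, with 3 DMSO peaks of 2503 bp in all, 2 AZD2014 peaks of 3327 bp and 2 rapamycin peaks of 2246 bp. Here rapamycin, not DMSO, was the lowest. Arid2, a subunit of the PBAF remodelling complex, had 2450 bp of peaks in DMSO, 3266 bp in AZD2014 and 3172 bp in rapamycin within 3361 bp. Zfp36l2, which speeds the decay of AU-rich mRNAs and is needed for definitive blood formation in mice, had 1641, 3244 and 3311 bp within 3311 bp. Tgif1, a repressor of TGF-beta and retinoic acid signalling, rested most on the drug lists, with 879 bp in DMSO, 2982 bp in AZD2014 and 2708 bp in rapamycin. Its DMSO peak was weak, ranked 13139 of 17189 by score. The reverse was seen at Crlf2, a subunit of the receptor for thymic stromal lymphopoietin. Its 3057 bp were nearly filled in each list, by 2893, 3057 and 3041 bp, and its best peak ranked 74, 52 and 59 by score.

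**Figure D2:**
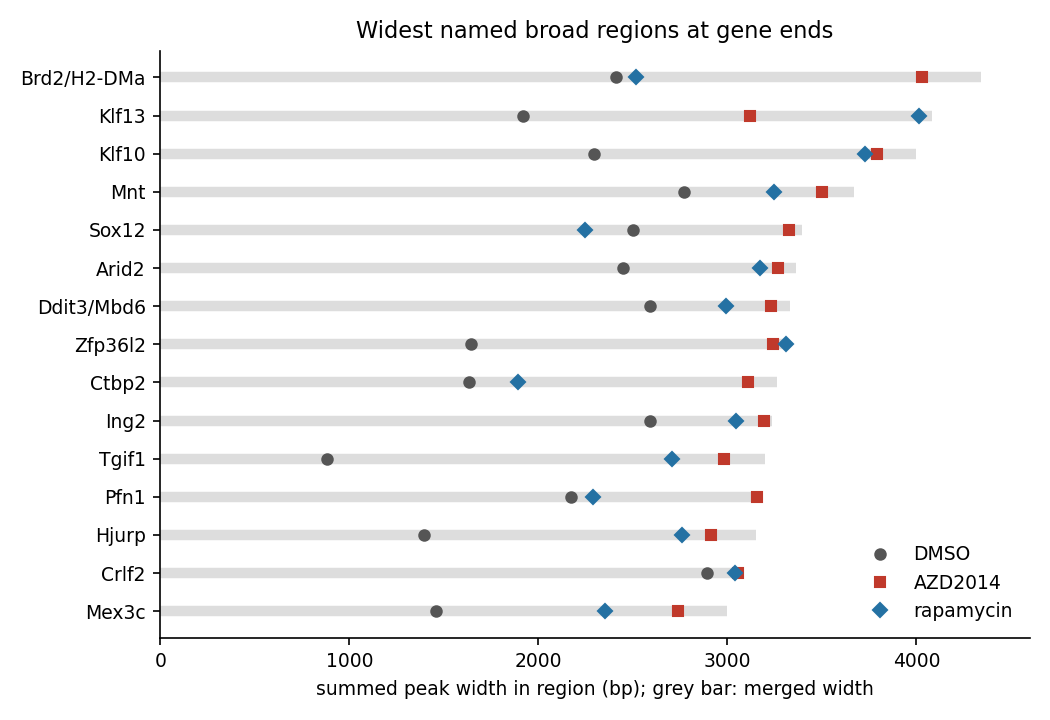
The 15 widest broad regions at ends of named genes: grey bars show the merged width and symbols the summed peak width (bp) of the DMSO, AZD2014 and rapamycin lists. The DMSO symbol is the leftmost in 14 of the 15, the exception being Sox12, and the gap to the drug symbols is widest at Tgif1 and narrowest at Crlf2.

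Some of the widest broad regions away from gene ends were covered over at least 82.4% of their width in every list and had peaks among the highest scores. The widest broad region of all, 6147 bp at chr17:39842911-39849057, overlapped the annotated 18S ribosomal RNA pseudogene Rn18s-rs5 and the long noncoding RNA AY036118, 101463 bp from the nearest protein-coding gene, Esp38. Its peaks covered 5946 bp in DMSO, 6114 bp in AZD2014 and 6001 bp in rapamycin, and its best peak ranked 7, 8 and 6 by score. A region of 5184 bp nearest to Col19a1, chr1:24611315-24616498, overlapped the pseudogenes Gm10222 and Gm10925 and ranked 2, 1 and 1. One of 5451 bp, 329830 bp from Alkbh8 and over no annotated gene, ranked 15, 10 and 14. A region of 3581 bp inside Myo3a, a myosin gene of hair cells, also ranked 2, 1 and 1, tied with the one nearest to Col19a1. A region of 4304 bp, 113972 bp from Gm2244, ranked 21, 16 and 18. No mappability track or list of problem regions was used here. Whether repeated or multi-copy sequence adds reads, width and score at these places, at Crlf2 or at other broad regions was therefore not tested. Within the top 25 ranks of the DMSO list lay the best peaks of 9 broad regions. They included those at Sp1 and Sp4, zinc-finger factors that bind GC boxes.

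Not every wide intergenic region scored high. The region of 5959 bp near Scaf8, over the transcribed pseudogene Pisd-ps2, was covered for 3477 bp in DMSO, 5959 bp in AZD2014 and 5842 bp in rapamycin, and ranked 2785, 6145 and 4532. A region of 3447 bp nearest to the chemokine receptor gene Ccr1, over the long noncoding RNA Gm51701, had 1910, 2805 and 2336 bp.

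Broad regions sat mostly at gene ends, defined as the window of 1 kb to each side of the first or last base of a protein-coding gene. A gene end was reached by 1042 broad regions (80.6%, interval 78.3 to 82.7) and by 59.4% of the narrower ones. A gene body away from its ends held 156 (12.1%, against 22.2%), and 95 lay outside genes (7.35%, interval 6.05 to 8.9, against 18.4%). Because a longer region touches a window more easily, places were also taken at region midpoints, an alternative chosen after the data were seen. By midpoint, 74.5% of broad and 57.1% of narrower regions were at a gene end, and 7.58% against 18.8% outside genes. Among the 30 regions of 3000 bp or more, the makeup differed, with 16 at gene ends, 4 in bodies and 10 outside genes.

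Most broad regions held a transcription start. An annotated start, taken from the RefSeq promoter table for the 17492 of 21887 protein-coding genes it covers, lay in 956 broad regions (73.9%) and in 50.4% of narrower ones. A longer region holds a start more easily, and the part of length in this contrast was not tested. Where a broad region had a single start and 1 peak per list (588 regions), it reached a median of 833 bp upstream and 867 bp downstream of it. In DMSO the peak reached 645 bp upstream and 567 bp downstream. The AZD2014 peak reached 776 and 817 bp, and the rapamycin peak 740 and 726 bp. The extra reach over DMSO had a median of 103 bp upstream and 148 bp downstream in AZD2014, and of 75 and 94 bp in rapamycin. In the 5014 narrower regions of this type the extra reach was 60 and 92 bp in AZD2014 and 43 and 62 bp in rapamycin. The downstream side was extended more in 57.0% of broad and 57.5% of narrower regions in AZD2014.

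**Figure D3:**
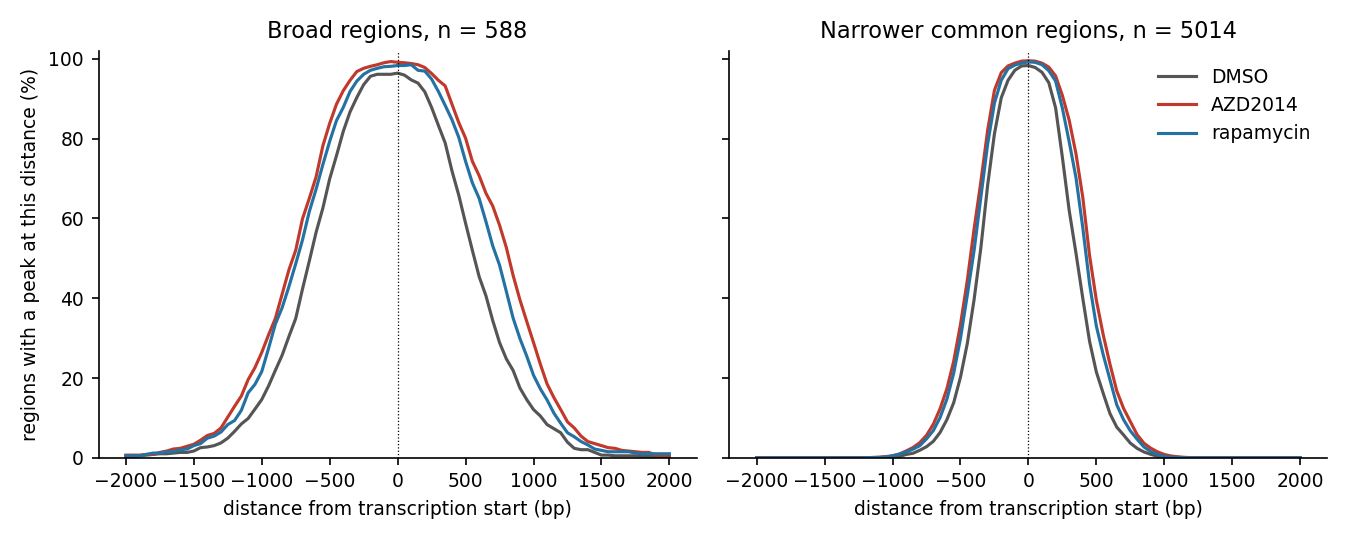
Share of regions with a peak at each distance (bp) from the transcription start, negative upstream, for 588 broad (left) and 5014 narrower common regions (right) with 1 start and 1 peak per list. At 1000 bp downstream a peak was present in 12.1% of broad regions in DMSO, 28.9% in AZD2014 and 20.7% in rapamycin, and in under 1% of narrower regions.

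A minority of broad regions lay at ends of more than a single gene, first and last bases counting alike. The ends of 2 or more genes lay at 243 broad regions (18.8%, interval 16.8 to 21.0), against 11.2% of narrower regions, and by midpoint at 15.2% against 9.6%. For starts, the greater length of broad regions was not allowed for. Starts on both strands, as in divergent promoters, were found in 138 (10.7%) and in 4.76% of narrower regions. Such pairs included Ddit3 with Mbd6, Hnrnpa2b1 with Cbx3, Hnrnpa1 with Cbx5, Ddx5 with Cep95, and Aurka with Cstf1. Ends of 3 genes were the most that a broad region reached, in 7 regions, among them clusters of histone genes. The region chr13:21831420-21834287, of 2868 bp, reached H2ac24, H4c18 and H4bc24, and chr13:23760764-23762941, of 2178 bp, reached H1f1, H3c1 and H4c1. Peaks at the former summed to 2075 bp in DMSO, 2345 bp in AZD2014 and 2848 bp in rapamycin. At the latter they summed to 1015, 2178 and 2053 bp. Shorter regions also reached 3 gene ends, of 1919 bp near Ampd2, a purine-cycle deaminase, and of 1606 bp near Yrdc, an enzyme of tRNA modification.

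A few genes carried several broad regions. E2f3, an activator of cell cycle genes, had 2 that lay next to each other, chr13:29983461-29985371 with 1244, 1911 and 1412 bp of peaks in DMSO, AZD2014 and rapamycin, and chr13:29985380-29986989 with 1192, 1203 and 1523 bp. Kdm6b, a demethylase of H3K27, had 3823 bp within its body, chr11:69408378-69412200, as 1 DMSO peak of 3581 bp, 2 AZD2014 peaks of 3599 bp and 3 rapamycin peaks of 3514 bp. A second region of 2010 bp at a gene end of Kdm6b, chr11:69417383-69419392, went from 795 bp in DMSO to 1931 bp in AZD2014 and 1054 bp in rapamycin. The body region was thus of like summed width in the lists, and the other was not. In all, 22 pairs of neighbouring broad regions lay within 10 kb of each other.

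Inside gene bodies, the widest regions after Kdm6b and Myo3a lay in Nr3c1, the glucocorticoid receptor gene, with 2718 bp of peaks in DMSO, 3262 bp in AZD2014 and 3350 bp in rapamycin, and in Tmem267, with 1949, 3269 and 3201 bp. In Rbpj, the DNA-binding partner of Notch, a region of 2613 bp held an internal annotated start and 1860, 2442 and 2482 bp of peaks. Ywhaz, which encodes a 14-3-3 adaptor protein, had 2277, 2592 and 2575 bp. Of the 95 regions outside genes, 30 lay within 10 kb of a protein-coding gene and 22 lay beyond 50 kb, the median distance being 21652 bp. An annotated noncoding gene or pseudogene was overlapped by 52 of the 95.

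Drug peaks were longer than DMSO peaks in most broad regions, by about as much as elsewhere. The ratio of summed peak width to DMSO had a median of 1.23 in AZD2014 (interval 1.22 to 1.26) and 1.15 in rapamycin (1.13 to 1.16), against 1.23 and 1.17 in the narrower regions. AZD2014 peaks were wider than DMSO peaks in 1152 broad regions (89.1%) and rapamycin peaks in 1028 (79.5%), where the narrower regions gave 84.5% and 76.2%. A ratio of 1.5 or more was found for AZD2014 in 318 broad regions, or 24.6%, with 21.0% over all common regions. For rapamycin it was found in 230, or 17.8%, with 15.4% over all common regions. A ratio of 1/1.5 or less occurred in 5 broad regions (0.387%) for AZD2014 and in 22 (1.7%) for rapamycin, with 0.556% and 1.16% over all common regions. A region that is long in any 1 list can pass the width threshold, so large ratios enter more easily among the broad regions. When width was taken as the median of the 3 lists, which left 621 regions, the share at 1.5 or more was 16.9% for AZD2014 and 15.3% for rapamycin. With that definition neither drug exceeded the share over all common regions.

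**Figure D4:**
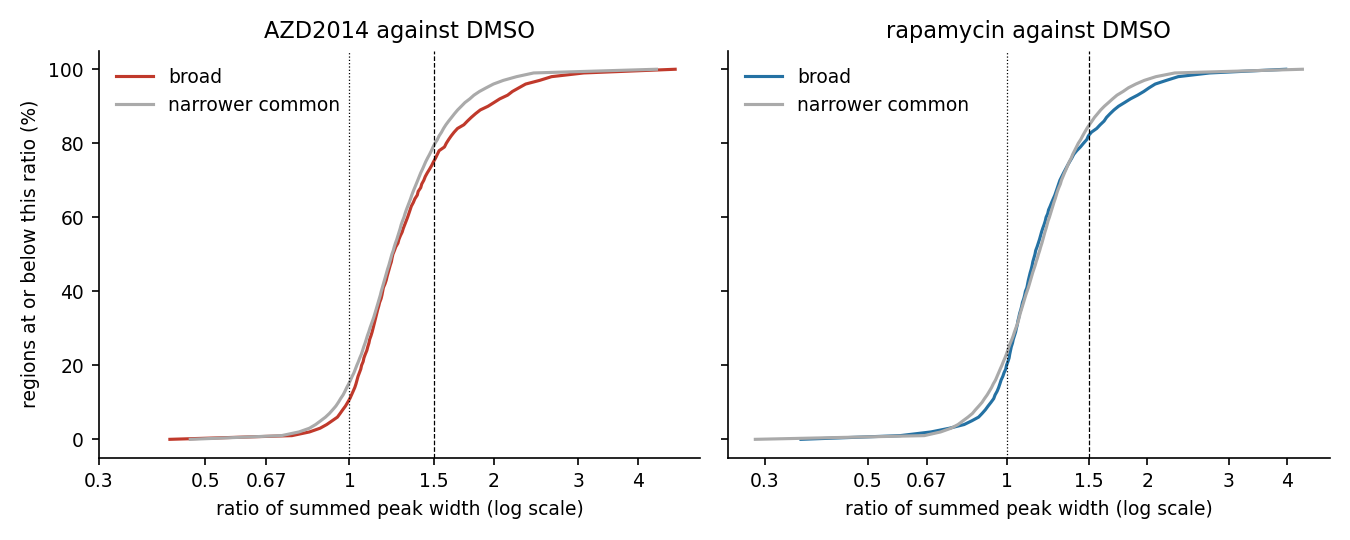
Cumulative share of regions (%) by the ratio of summed peak width to DMSO (log scale) for AZD2014 (left) and rapamycin (right), broad regions in colour and narrower common regions in grey. The curves nearly coincide around their medians, and the broad curve lies lower right of the dashed line at 1.5, where 24.6% (AZD2014) and 17.8% (rapamycin) of broad regions lie.

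The highest AZD2014 ratio, 4.78, belonged to Vegfa, the gene of the main angiogenic growth factor and a target of hypoxia signalling. At chr17:46030502-46033095 the peak was 543 bp long in DMSO, 2594 bp in AZD2014 and 678 bp in rapamycin, so that the AZD2014 library alone made this region broad. Icam1, an adhesion molecule induced by NF-kB, had 359 bp in DMSO, 1564 bp in AZD2014 and 1038 bp in rapamycin at chr9:21014632-21016195. Rnf125, a ubiquitin ligase gene, had 473, 1814 and 560 bp within its body. At Icam1 both drug libraries lay above DMSO, and at Vegfa and Rnf125 the rapamycin library stayed near it. The DMSO peaks ranked 7812 at Vegfa, 13131 at Icam1 and 12418 at Rnf125 by score, against a median rank of 2205 for broad regions.

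Rapamycin had its highest ratio, 3.98, at the region near Dnttip2 described with the miRNAs. Mbnl3, a splicing regulator on chromosome X, followed with 452 bp in DMSO, 941 bp in AZD2014 and 1630 bp in rapamycin. Acss1, a mitochondrial acetyl-CoA synthetase, had 548, 1839 and 1732 bp. The DMSO library was the lowest of the 3 at each of these. Their DMSO peaks were weak, ranked 14257 near Dnttip2, 11726 at Mbnl3 and 14219 at Acss1 among 17189 by score. Of all broad regions, 91.4% had a DMSO peak in the upper 50% of the list.

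A few broad regions went the other way. Ctdspl, a phosphatase gene, had 1645 bp in DMSO as 2 peaks, 768 bp in AZD2014 and 1114 bp in rapamycin. Zbtb7b, which directs T cells to the CD4+ lineage, had 1974 bp in DMSO, 1125 bp in AZD2014 and 2156 bp in rapamycin. For rapamycin the lowest ratio, 0.359, was at Arid1b, a subunit of the BAF remodelling complex, with 2362, 1994 and 849 bp at chr17:4993951-4996775. DMSO and AZD2014 had 2 peaks there and rapamycin 1. S1pr1, the receptor for sphingosine 1-phosphate through which blood cells leave tissues, had 1235 bp in DMSO, 1122 bp in AZD2014 and 587 bp in rapamycin. Spred2, an inhibitor of RAS to MAPK signalling, had 1675, 2733 and 823 bp. Arid1b and Spred2 had wide regions in the AZD2014 list and short ones in the rapamycin list, which without replicates cannot be told apart from library differences.

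Among the 13 lists with more than 10 genes at common regions, the shares with a broad region were highest for chromatin regulator, housekeeping and splicing genes, and lowest for ribosomal protein and interferon response genes. A broad region at a gene end was found for 1286 of the 21887 protein-coding genes, or 5.88%, and for 13.4% of the 9616 genes with any common region there. Shares below are of listed genes with a common region, to be read against that 13.4%. No list was tested as a set. RNA splicing and hnRNP genes had broad regions at 23 of 44, chromatin regulators at 23 of 42, and actin, tubulin and other housekeeping genes at 14 of 26. Immediate early genes had 10 of 24, genes of MAPK, MNK and CREB signalling 10 of 32, and replication-dependent histone genes 16 of 57. These shares leaned on single libraries. For immediate early genes the share without the AZD2014 list was 25% in place of 41.7%, with 8.95% over all genes. For histone genes the share without the rapamycin list was 15.5% in place of 28.1%, with 10.4% over all genes. Cytosolic ribosomal protein genes, although 75 of the 78 had a common region, had a broad one at 3, namely Rpl7, Rps29 and Rpl38. Interferon response genes had none at 17.

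**Figure D5:**
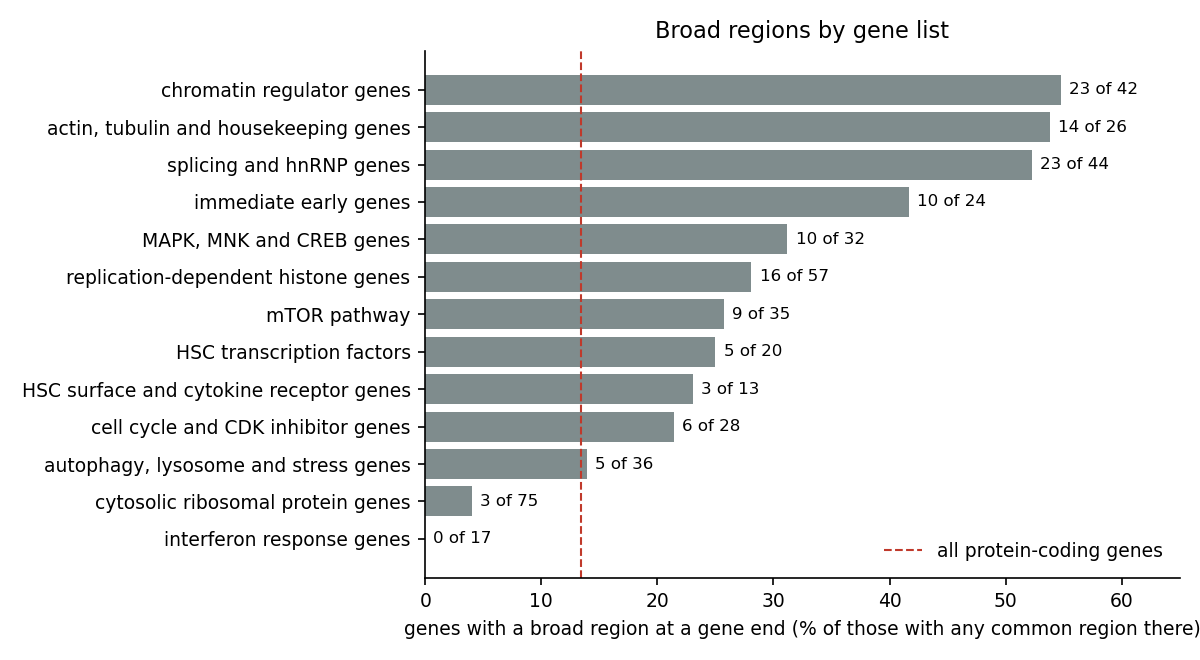
Percent of genes with a broad region at a gene end among those with any common region there, by gene list, with the number of genes beside each bar. The dashed line marks 13.4% for all protein-coding genes; splicing, chromatin and housekeeping lists lie near 50% and ribosomal protein genes at 4.0%.

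Broad regions at splicing genes had median ratios to DMSO of 1.14 in AZD2014 and 1.1 in rapamycin over 23 regions, against 1.23 and 1.15 over all broad regions. A ratio of 1.5 or more was found at 3 of the 23 in AZD2014 and at 1 in rapamycin, where all common regions gave 21.0% and 15.4%. Hnrnpa1, which coats pre-mRNA, had 1726 bp in DMSO, 1790 bp in AZD2014 and 1799 bp in rapamycin. Srsf2, a serine- and arginine-rich splicing factor mutated in human myeloid neoplasms, had 1945, 1823 and 1844 bp. Ptbp1, a repressor of exon inclusion, had 1837, 1801 and 1866 bp. These 3 regions were of nearly the same width in every library. Hnrnpd, which binds AU-rich elements, was an exception with 809 bp in DMSO, 1071 bp in AZD2014 and 2010 bp in rapamycin.

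Chromatin regulators with broad regions covered writers, readers and erasers of histone marks. All of the listed genes of the KMT2 family, from Kmt2a to Kmt2e, were among them. So were the Polycomb genes Ezh2, Eed and Jarid2, the acetyltransferase genes Kat6a and Kat6b, and Asxl1 and Asxl2. A region at a gene end need not hold the start of that gene. The region counted for Kmt2d held an annotated start of its neighbour Prkag1 and none of Kmt2d. Kat6b had one of the higher-scoring peaks, ranked 83, 105 and 65, with 1580 bp in DMSO, 2256 bp in AZD2014 and 2088 bp in rapamycin. Ezh2 had 1062, 1579 and 1533 bp, Kmt2a 1356, 1093 and 1237 bp, and Ctcf, the insulator protein gene, 1252, 1662 and 1579 bp. DMSO was the lowest library at Kat6b, Ezh2 and Ctcf and the highest at Kmt2a. Dnmt3a, Kdm6a and Arid1a had broad regions at internal starts, away from the annotated gene ends. The Dnmt3a region held 1826 bp of peaks in DMSO, 2255 bp in AZD2014 and 1862 bp in rapamycin.

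Immediate early genes encode transcription factors and feedback regulators that are induced within minutes of a stimulus. Their 10 broad regions had a median ratio of 1.42 in AZD2014 and 1.18 in rapamycin. The highest AZD2014 ratios among them were at Fosl2, Junb and Jund, which encode AP-1 subunits, and the highest rapamycin ratio at Zfp36l2. Jund had 1313 bp in DMSO, 2948 bp in AZD2014 and 1209 bp in rapamycin at chr8:70698110-70701057. Junb had 788, 1916 and 956 bp, and Fosl2 had 738, 2114 and 1362 bp. At these 3 the AZD2014 library was the highest. The AZD2014 peak at Junb was among the weaker of its list, ranked 18645 of 21321 by score. The DMSO and rapamycin peaks at Junb ranked 12653 and 11964 in their lists. Jun had 1444 bp in DMSO, 2076 bp in AZD2014 and 2348 bp in rapamycin, with rapamycin the highest. Egr1 differed little, with 2049, 2122 and 1921 bp, as did the phosphatase genes Dusp1 (1451, 1477 and 1608 bp) and Dusp2 (1666, 1556 and 1503 bp). Myc, which drives growth and ribosome production, had 1165, 1366 and 1576 bp.

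The mTOR pathway links growth factors and nutrients to translation. Of 43 matched genes, 35 had a common region and 9 a broad one, and the AZD2014 peaks were wider than DMSO peaks at all 9, with a ratio of 1.5 or more at 6. Rapamycin peaks were wider at all 9 and reached that ratio at 3. Over all common regions, AZD2014 peaks were wider in 84.9% and reached the ratio in 21.0%, and rapamycin peaks in 76.5% and 15.4%. Without the AZD2014 list, 14.3% of the pathway genes had a broad region in place of 25.7%, with 8.95% over all genes. The median ratios were 1.67 and 1.23, against 1.23 and 1.15 over all broad regions, and with 9 genes of a list chosen with earlier results in view they are a description only. Upstream, Akt1 had 720 bp in DMSO, 2304 bp in AZD2014 and 1093 bp in rapamycin, and Pik3ca, the catalytic subunit of PI3K, 1093, 1823 and 1299 bp. At both, the order from shortest to longest was DMSO, rapamycin, AZD2014.

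The inhibitors of the complex came next. Ddit4, a stress-induced inhibitor of mTORC1, had 580 bp in DMSO, 1305 bp in AZD2014 and 1397 bp in rapamycin. Sesn2, a leucine sensor, had 814, 1367 and 1376 bp. Both were longer in either drug library than in DMSO. Akt1s1, whose product PRAS40 restrains mTORC1, had 2022, 2423 and 2494 bp. Downstream, Eif4e, the cap-binding protein, had 1140 bp in DMSO, 2020 bp in AZD2014 and 1608 bp in rapamycin. Its inhibitor Eif4ebp1 had 1704, 1840 and 1834 bp, nearly level between libraries.

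HSC transcription factor genes had broad regions at 5 of 20, namely Foxo3, Hhex, Etv6, Bmi1 and Mycn. That share of 25% became 9.52% without the AZD2014 list, near the 8.95% of all genes, and 13.6% without the rapamycin list, against 10.4%. Foxo3, at chr10:42276221-42278625, had 1791 bp in DMSO, 2308 bp in AZD2014 and 2367 bp in rapamycin, each as 2 peaks. Hhex, a homeobox factor of early blood and endothelium, had 1613, 2002 and 1931 bp. Mycn, which acts with Myc in HSC survival, had 611, 1512 and 1268 bp, and Bmi1 had 842, 1448 and 1419 bp. In all 4 the DMSO library was the lowest. Runx1 had 2 broad regions inside its body. The one at the internal start printed above had 858 bp in DMSO, 1281 bp in AZD2014 and 1099 bp in rapamycin, and the other had 1548, 1690 and 1564 bp. Erg, an ETS factor, had 1261, 1891 and 1200 bp inside its body. Among 25 HSC surface and cytokine receptor genes, 13 had a common region and the integrin genes Itga4 and Itgb1 and the interleukin-3 receptor gene Il3ra a broad one. Itga4 had 1429 bp in DMSO, 1439 bp in AZD2014 and 1441 bp in rapamycin. Itgb1 had 1576, 1561 and 1250 bp, and Il3ra 1460, 1586 and 1324 bp, so that rapamycin was the lowest at both. The share of 23.1% for this list was 14.3% without the DMSO list, against 12.3% of all genes.

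Housekeeping and stress genes held both patterns. Actb had 1616 bp in DMSO, 1895 bp in AZD2014 and 1644 bp in rapamycin. Gapdh had 951, 2208 and 857 bp, and Eef1a1, the elongation factor that brings tRNA to the ribosome, 600, 1533 and 1415 bp. AZD2014 was the highest at all 3, and the rapamycin library was near DMSO at Actb and Gapdh and near AZD2014 at Eef1a1. Over the 14 housekeeping regions the median ratio was 1.16 in AZD2014 and 1.06 in rapamycin, against 1.23 and 1.15 over all broad regions. Gapdh and Eef1a1 were the only 2 with an AZD2014 ratio of 1.5 or more. Eno1 and Tubb4b went the other way, with AZD2014 ratios of 0.735 and 0.877. Among autophagy, lysosome and stress genes 5 of 36 were broad, or 13.9%, and 8.11% without the AZD2014 list. Ddit3, the stress factor CHOP, shared a region of 3330 bp with Mbd6, with 2593, 3230 and 2992 bp of peaks, and Nfe2l2, the regulator of antioxidant genes, had 1827, 2171 and 2015 bp. Of the 28 cell cycle genes with a common region, 6 (21.4%, and 10.3% without the AZD2014 list) were broad, including Ccnd2 (1393, 2268 and 1335 bp), E2f1 (1709, 1826 and 1606 bp) and Mki67 (1243, 1404 and 1504 bp).

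Few genes of mature blood lineages and other tissues had any common region, so their broad regions cannot be read against the background. Common regions were found at 1 B cell, 1 T cell, 4 erythroid and 1 non-blood gene, with none of them broad, and at no gene of the mast cell and basophil list. The megakaryocyte list had a broad region at 1 of 3, Zfpm1, whose product FOG1 is a partner of GATA1. The neutrophil and monocyte list had it at 1 of 1, Fcgr3. Of 10 HSC markers, 4 had a gene-end peak in DMSO, 5 in AZD2014 and 4 in rapamycin, none was broad, and Ly6a, Slamf1, Procr and Tek were among those with no peak in any list. T cell markers had 0 of 5 in each list, B cell markers 1, 2 and 2 of 5, erythroid markers 3 of 5 in each, and neutrophil and monocyte markers 0, 0 and 2 of 6. The part of other cell types in the broad regions was not tested.

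MicroRNA hairpins were found in 17 broad regions (1.31%), against 0.275% of narrower regions. Per length, this was 18 hairpins in 2.4 Mb, or 7.5 per Mb, against 37 in 11.5 Mb, or 3.21 per Mb. Of the 17 regions, 13 were at gene ends, 2 in gene bodies and 2 outside genes, and a peak there says nothing of whether the miRNA is made. The 24 mature sequences in the RefSeq table had 24 different seeds. The following lie in the region with the highest rapamycin ratio and in regions of mTOR pathway genes and of Cdk9, the kinase that releases paused RNA polymerase II. Capitals mark the seed, bases 2 to 8.
mmu-miR-760-3p: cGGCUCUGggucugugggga
mmu-miR-760-5p: cCCCUCAGgccaccagagcccgg
mmu-miR-1956: aGUCCAGGgcugagucagcgga
mmu-miR-707: cAGUCAUGccgcuugccuacg
mmu-miR-2861: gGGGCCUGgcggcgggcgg

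Mir760 lay at chr3:122293585-122293703 on the minus strand, inside the broad region chr3:122292631-122294360 that is 7360 bp from Dnttip2 and also overlaps a tRNA gene. Peaks there covered 380 bp in DMSO, 1730 bp in AZD2014 and 1512 bp in rapamycin, ratios of 4.55 and 3.98. The DMSO peak was the shortest by far and ranked 14257 of 17189 by score. Mir1956 lay in the Eif4e region, at chr3:138526421-138526485 on the plus strand, and Mir707 in that of Akt1s1, at chr7:44849699-44849771 on the plus strand. Mir2861, at chr2:32712807-32712888 on the minus strand, lay with Mir3960 in the region of Cdk9, whose peaks covered 1304, 1963 and 1802 bp. Of the 17 regions, AZD2014 peaks were wider than DMSO peaks in 16 and rapamycin peaks in 13, with median ratios of 1.27 and 1.23. Over all common regions 84.9% and 76.5% were wider, so these counts were near the background. A ratio of 1.5 or more was found at 8 of the 17 in AZD2014 and at 4 in rapamycin, with 21.0% and 15.4% over all common regions. With 17 regions this is a description only.

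Promoters inside broad regions were the richest in CpG. The 1359 promoters there, of 1095 genes, had a median GC content of 66.7%, 28 CpG per 300 bases and a ratio of observed to expected CpG of 0.862. The 7671 promoters in narrower common regions had 62.0%, 23 and 0.81, and the 12233 in no common region 50.7%, 5 and 0.274. A GC content of at least 50% with a CpG ratio of at least 0.6 was met by 87.6% of broad, 79.8% of narrower and 18.7% of the remaining promoters.

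The short motifs were spread unevenly. A GC box, GGGCGG, was present on either strand in 78.0% of promoters in broad regions, 71.0% in narrower regions and 46.2% of all 21263 promoters. CACGTG was found in 11.4%, 11.2% and 7.84%. The ETS motif CCGGAAGT was in 6.4% of promoters in broad regions, 11.2% in narrower regions and 5.15% of all, and the cyclic AMP response element TGACGTCA in 2.35%, 4.15% and 2.23%. The NRF1 motif GCGCATGCG was in 3.9%, 4.9% and 2.35%, CCAAT in 39.3%, 41.0% and 38.2%, and AAGATGGC in 4.56%, 5.58% and 3.05%. TATAAA was in 4.34% of promoters in broad regions, 5.25% in narrower regions and 12.6% of all. The AP-1 motif TGANTCA was in 2.72%, 3.82% and 6.99%. The RUNX motif TGTGGT was in 7.8%, 11.4% and 15%. For the motif of GATA factors, AGATAA, the shares were 3.31%, 5.32% and 9.65%. Base composition was not held constant in these shares. CTCGCGAGA was in 2.28%, 1.98% and 0.964%. The windows cover 300 bases at the start, so motifs elsewhere in the broad regions were not counted.

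Broad regions were found on every chromosome with common regions except Y. Their share of common regions ran from 7.33% on chromosome 9 to 12% on chromosome 1 among the autosomes, and was 3.71% on X (13 of 350).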

How the data were processed

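The authors deposited 1 peak list per library, each line with chromosome, start, end, peak name and a score. That score, given by the authors for every peak, served here only to rank peaks inside 1 list. The peak names carry MACS per the file contents, and the submitters' processing notes name CASAVA and mm10. Not given in the sources used here were the caller's version and settings, aligner, duplicate handling and transposase shift, although they set peak width. Read depth is unknown.

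Peaks overlapping by at least 1 bp were merged, starts were written from 1, and widths, peaks and summed bp per list were counted per region. Genes and sequences came from RefSeq tables of GRCm38.p6, which is mm10 by its other name. No genome sequence was used here, so only promoters and miRNAs are printed. Gene ends were windows of 1 kb to each side of the first or last base of a gene. Shares have 95% Wilson intervals and medians order-statistic intervals. Ratios were called at 1.5.

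Members, the 20 gene lists and the tests were chosen with earlier results of these data known. Named were the 15 widest regions, the 5 highest and 5 lowest ratios per drug, the 5 with most peaks, the 8 widest outside genes and in bodies, the 5 touching most gene ends, the regions nearest the threshold, and list members; predicted Gm and Rik genes were passed over unless needed as the nearest annotation. A few list members are not reported here. Sp1, Sp4 and gene pairs were named after their values were seen. The alternatives changed the width threshold and definition, list length, weak peaks, merging, chromosomes, gene window and the lists used. Merging and placement code was tested on simulated peaks. Python 3.11.15, numpy 2.4.6, pandas 2.3.3, scipy 1.17.1 and matplotlib 3.10.9 were used.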

Additional observations from a re-analysis of the deposited data

How the results depend on the processing

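With 1 library per condition and unknown depth, no value can be set against replicate error. No paired analysis was possible because the labels give no replicate numbers shared between groups. The number of broad regions was 294 at a threshold of 2000 bp, 5985 at 1000 bp, 621 with width taken as the median over the lists, and 843 without the AZD2014 list. The share at gene ends was 78.2% at 2000 bp, 83.1% with the upper 50% of peaks by score, 78.2% and 85.3% with gene windows of 500 and 2500 bp, and 74.5% by midpoint. The share at ends of 2 or more genes was 22.4% at 2000 bp, 23.3% with the median width, 22.8% with a window of 2500 bp, 21.6% without the AZD2014 list and 15.2% by midpoint. An AZD2014 ratio of 1.5 or more was found in 28.6% at 2000 bp, 20.9% at 1000 bp and 16.9% with the median width, and for rapamycin in 21.8%, 14.6% and 15.3%. The median AZD2014 ratio was 1.28 at 2000 bp and 1.19 with the median width, and the median rapamycin ratio 1.17 at 2000 bp. Regions with 1 peak in each list made up 74.1% at 2000 bp, 95.2% at 1000 bp, 79.9% with the median width, 96.9% with the upper 50% of peaks and 82.7% when peaks up to 100 bp apart were merged. Outside genes lay 5.87% with the upper 50% of peaks. With lists cut to equal length there were 1286 broad regions, 80.9% at gene ends, and median ratios of 1.23 and 1.15. Over all settings, 59 summary values stayed the same and 29 moved. Shares and medians counted as the same inside the 95% interval of the main value. The number of broad regions, which has no interval, did so within a factor of 1.5 of the main number.

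For the gene lists, the share of genes with a broad region crossed that of all genes in 4 cases: HSC surface genes at 2000 bp (0.0% against 3.1%), cell cycle genes with the median width (3.57% against 6.65%), and autophagy and stress genes without the AZD2014 list (8.11% against 8.95%) and by midpoint (11.8% against 12.7%). The cause was not tested.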

Other observations

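Another 49 regions of 1500 bp or more lacked a peak in at least 1 list and were therefore not among the broad regions. Peaks were found in AZD2014 and rapamycin but not DMSO in 14 of them, in DMSO and AZD2014 in 12, in AZD2014 alone in 9, in DMSO alone in 7, in DMSO and rapamycin in 4, and in rapamycin alone in 3. Of the 49, 26 lay outside protein-coding genes, 13 at gene ends and 10 in gene bodies, and 5 were on chromosome X and 5 on chromosome Y. The widest of all merged regions was among them, 6978 bp nearest to Mid1 at chrX:169992809-169999786, with a peak in the DMSO list only. At Duxf3, chr10:58222709-58228763, peaks covered 6055 bp in AZD2014 and 6021 bp in rapamycin, with none in DMSO. At Sp110 and Sp140, chr1:85597284-85601539, they covered 1508 bp in DMSO and 4256 bp in AZD2014, with none in rapamycin. A region nearest to Olig2, a neural factor, had 2986 bp in AZD2014 and 1089 bp in rapamycin. A missing peak means only that no peak passed the authors' threshold in that list.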
